A study of Mus with 8 samples.

Results

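The apolipoprotein genes Apoa1, Apoa2, Apoa4, Apoa5, Apob, Apoc1, Apoc2, Apoc3, Apoe and Apom were compared between LKB1 KO and Ctrl mouse livers. They were taken by gene symbol, and all 10 were found among the 23185 named genes of the table, each with 1 row. The livers were collected 48 h after partial hepatectomy, in which part of the liver is cut away and the remnant regrows. The labels put 4 arrays in the LKB1 KO group and 4 in the Ctrl group. LKB1, encoded by Stk11, is a kinase that activates AMPK and its relatives. The sources used here do not give the Stk11 allele, what removed it or in which cells, nor the strain, sex and age of the mice. Every level is a log2 expression value, and every difference is LKB1 KO minus Ctrl in log2 units, with its moderated standard error (SE).

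Apolipoproteins are the protein part of lipoproteins, the particles that carry fat and cholesterol in blood, and hepatocytes are a main source of most of them. Apoa1, Apoa2 and Apom belong to high-density lipoprotein (HDL). Apob is the structural protein of very-low-density lipoprotein (VLDL), the particle by which the liver exports triglyceride. Apoe directs remnants of such particles to receptors, and the C apolipoproteins and Apoa5 tune the lipoprotein lipase that empties them. Several of these genes are neighbours. In the RefSeq annotation of mouse assembly GRCm38.p6, Apoa1, Apoc3, Apoa4 and Apoa5 follow each other with no other protein-coding gene between them. Apoe, Apoc1, Apoc4 and Apoc2 form another such row.

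The transcripts of this family differed little between the groups. None of the 10 genes passed the test (adjusted p under 0.05 over all named genes, limma), so 0 were higher and 0 were lower in LKB1 KO. Over all 23185 genes 1.98% passed, 0.487% as higher and 1.49% as lower, and a count of 0 among 10 is close to that background. At an unadjusted p under 0.05 there was 1 apolipoprotein gene, Apoa1, where 13.4% of all genes had such a p. The median difference of the 10 was -0.02, beside 0.02 over all genes, with 4 genes higher and 6 lower by their means. For every gene but Apoa4 the 95% confidence interval lay within a 1.5-fold change in either direction, 9 of 10 in all. The outermost bound among those 9 was 1.49-fold, and under the other settings and with single arrays left out it ran from 1.41-fold to 1.64-fold.

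**Figure D1:**
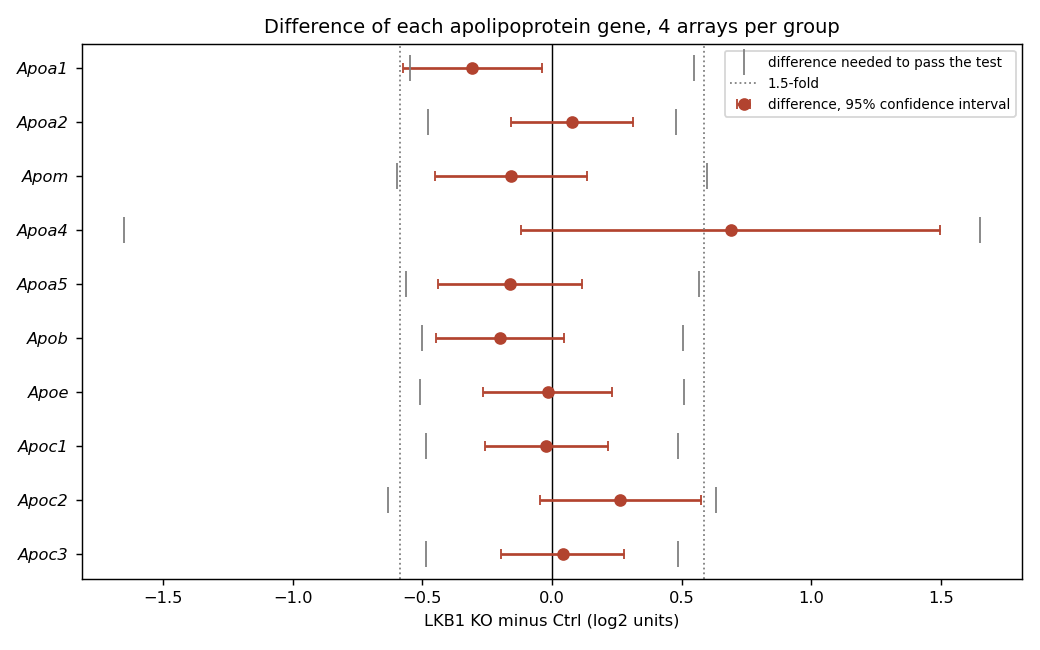
Difference of each of the 10 apolipoprotein genes (dots, LKB1 KO minus Ctrl, log2 units) with its 95% confidence interval (bars), for 4 arrays per group. Grey ticks mark the difference each gene would have needed to pass the test, and dotted lines mark 1.5-fold. Every dot lies inside its ticks, and the interval of Apoa4 is far wider than the other 9.

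The test could have called moderate measured differences in most of these genes. Given its SE and the largest unadjusted p that still passed (0.000976), a gene needed a difference of 0.48 (Apoa2) to 0.63 (Apoc2) to be called. Apoa4 was the exception and needed 1.65. Some bright genes did change in these livers. Of the 264 genes whose mean level was at or above that of Apom, the lowest of the family, 9.85% passed the test, 5 as higher (1.89%) and 21 as lower (7.95%), beside 0 of 10 apolipoprotein genes in either direction. That set was chosen after the values had been seen and holds the 10 apolipoprotein genes. Among its genes brighter than Apoc2 (mean 11.31), the largest difference in either direction was -0.51, for Fga at a mean of 11.63. Apoa1, Apoa2, Apob, Apoc1, Apoc3 and Apoe are also brighter than Apoc2. Whether differences are compressed at such levels was not tested.

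The targeted gene followed the labels. Stk11 stood at 3.98, 3.97, 4.84 and 4.22 in LKB1 KO 1 to 4, against 6.69, 6.68, 6.46 and 6.76 in Ctrl 1 to 4. The groups did not overlap, and the difference of -2.39 (SE 0.19) had a limma adjusted p of 0.000453. Array medians over named genes lay between 3.75 and 3.96. LKB1 KO 2 had the highest median and the lowest mean correlation with its own group, 0.974, and Ctrl 4 the lowest among Ctrl arrays, 0.976. With 4 arrays a group, precision is limited throughout.

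Among the HDL proteins, Apoa1 showed the smallest unadjusted p of the family. Apoa1 (Entrez Gene 11806) encodes the main HDL protein, which takes up cholesterol from cells and activates the esterifying enzyme LCAT. Its levels were 11.59, 11.49, 11.49 and 11.71 in LKB1 KO 1 to 4, against 12.05, 11.86, 11.74 and 11.86 in Ctrl 1 to 4. Every LKB1 KO array lay below every Ctrl array, but LKB1 KO 4 and Ctrl 3 were only 0.032 apart. The means were 11.57 ± 0.10 in LKB1 KO and 11.88 ± 0.13 in Ctrl (SD, n = 4 each). The difference of -0.31 (SE 0.12, 95% confidence interval -0.58 to -0.04) equals a 1.24-fold lower level. It did not pass the test across all genes (limma, adjusted p = 0.293, with an unadjusted value of 0.0289). Over single arrays left out the adjusted p ran from 0.283 to 0.491, and over the other settings from 0.0893 with a trended and robust prior to 0.541.

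Apoa2 (Entrez Gene 11807), which encodes another abundant HDL protein, went the other way by a much smaller amount. Its levels were 12.658, 12.652, 12.698 and 12.687 in LKB1 KO 1 to 4, against 12.620, 12.573, 12.613 and 12.582 in Ctrl 1 to 4. Every LKB1 KO array lay above every Ctrl array, by at least 0.032. The difference was 0.08 (SE 0.11, 95% confidence interval -0.16 to 0.31, adjusted p = 0.818). Apoa2 gave the highest value of the whole array on 7 of the 8 arrays, Ctrl 2 being the exception, where Gstp1 exceeded it. It also had the narrowest spread within groups of all 264 bright genes, with an SD of 0.0225. Where a probe set sits at the upper end of the scale, differences can be compressed, and the part this plays in the Apoa2 value was not tested.

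Apom (Entrez Gene 55938) encodes the HDL protein that carries sphingosine-1-phosphate. Its levels were 9.53, 9.84, 10.01 and 9.90 in LKB1 KO 1 to 4, against 9.93, 9.94, 9.99 and 10.04 in Ctrl 1 to 4. The Ctrl arrays kept within 0.111 of each other, while LKB1 KO 1, 2 and 4 lay below all of them and LKB1 KO 3 fell inside the Ctrl range. The difference was -0.16 (SE 0.13, adjusted p = 0.677), and without LKB1 KO 1 it was -0.06.

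**Figure D2:**
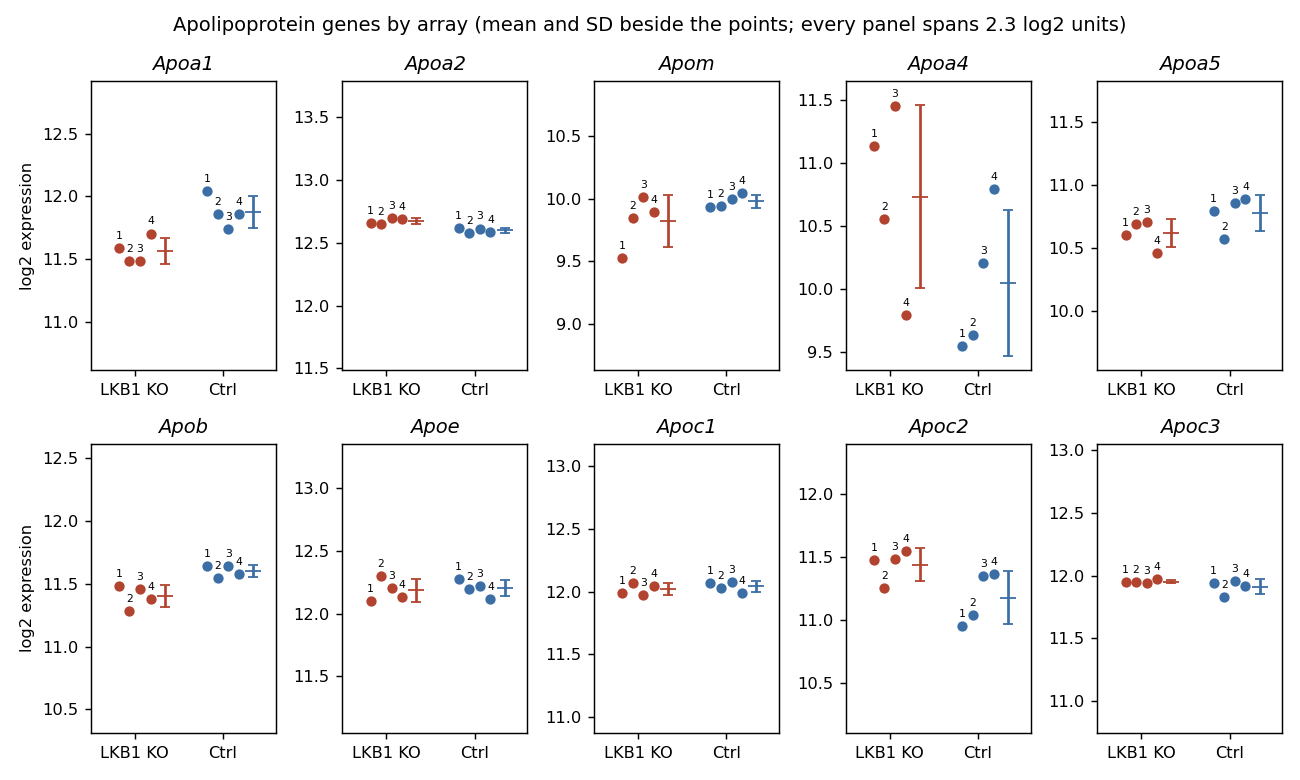
Log2 expression of the 10 apolipoprotein genes in each array, LKB1 KO left and Ctrl right in every panel, with the array number above each point and the group mean and SD beside the points. All panels span the same height of 2.3 log2 units, so spreads can be compared between panels. Apoa4 fills its panel, while Apoa2, Apoc1 and Apoc3 are nearly flat.

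Apob (Entrez Gene 238055), the structural protein gene of VLDL, was slightly lower in LKB1 KO by its mean. Its levels were 11.48, 11.29, 11.46 and 11.38 in LKB1 KO 1 to 4, against 11.64, 11.54, 11.64 and 11.58 in Ctrl 1 to 4. The groups did not overlap, with a gap of 0.064. The difference was -0.20 (SE 0.11, 95% confidence interval -0.45 to 0.05), a 1.15-fold lower level that did not pass the test (adjusted p = 0.496).

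In 3 of 10 genes, Apoa1, Apoa2 and Apob, the groups were fully separate, 1 with LKB1 KO above and 2 with LKB1 KO below. The background of such separation over the 23185 genes was 8.84%, 3.34% with LKB1 KO above and 5.5% with LKB1 KO below. Among the 264 bright genes the share was 43.9%, and 3 of 10 does not exceed it. At an unadjusted p under 0.05 the bright genes stood at 38.6%, against 1 of 10 apolipoprotein genes. The fit without moderation of variances judges each gene by its own spread alone. In it the unadjusted p was 0.00942 for Apoa1, 0.00295 for Apoa2 and 0.00726 for Apob, and their adjusted p was 0.218, 0.135 and 0.199.

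Apoe (Entrez Gene 11816), the ligand by which remnants are taken up, is made by hepatocytes and also by macrophages. Its levels were 12.10, 12.30, 12.21 and 12.13 in LKB1 KO 1 to 4, against 12.27, 12.20, 12.22 and 12.12 in Ctrl 1 to 4. All 4 Ctrl arrays lay within the LKB1 KO range, and the difference was -0.02 (SE 0.11, 95% confidence interval -0.27 to 0.23, adjusted p = 0.968). Its sign was not stable: quantile normalization gave 0.10, and leaving out LKB1 KO 1, LKB1 KO 4 or Ctrl 1 also turned it above 0.

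Apoa4 had the largest difference in the family and the least certain one. Apoa4 (Entrez Gene 11808) encodes a lipid-responsive apolipoprotein of chylomicrons and HDL that mouse liver makes beside the intestine, and its liver transcript is known to follow feeding state and hepatic fat. Its levels were 11.13, 10.56, 11.46 and 9.79 in LKB1 KO 1 to 4, against 9.55, 9.63, 10.20 and 10.80 in Ctrl 1 to 4. LKB1 KO 4 lay among the lower Ctrl values and Ctrl 4 among the LKB1 KO values, so the groups overlapped widely. The means were 10.73 ± 0.73 in LKB1 KO and 10.05 ± 0.58 in Ctrl (SD, n = 4 each). The difference of 0.69 (SE 0.37, 95% confidence interval -0.121 to 1.497) equals a 1.61-fold higher level and did not pass the test (adjusted p = 0.471). It was 1.00 without LKB1 KO 4 (adjusted p = 0.225), 0.94 without Ctrl 4 (adjusted p = 0.287) and 0.45 without LKB1 KO 3 (adjusted p = 0.664). The interval reaches 2.82-fold higher, so these arrays do not bound Apoa4 tightly.

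The spread of Apoa4 set it apart from the rest of the family. Its SD within groups was 0.659, and only 4 of the 264 bright genes had a larger one, where their median was 0.129. The next in the family was Apoc2 with an SD of 0.175. At the other end, Apoc3 (0.0427), Apoc1 (0.0437) and Apoa2 lay among the narrowest, with 261, 260 and 263 of the 264 genes spread more widely.

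**Figure D3:**
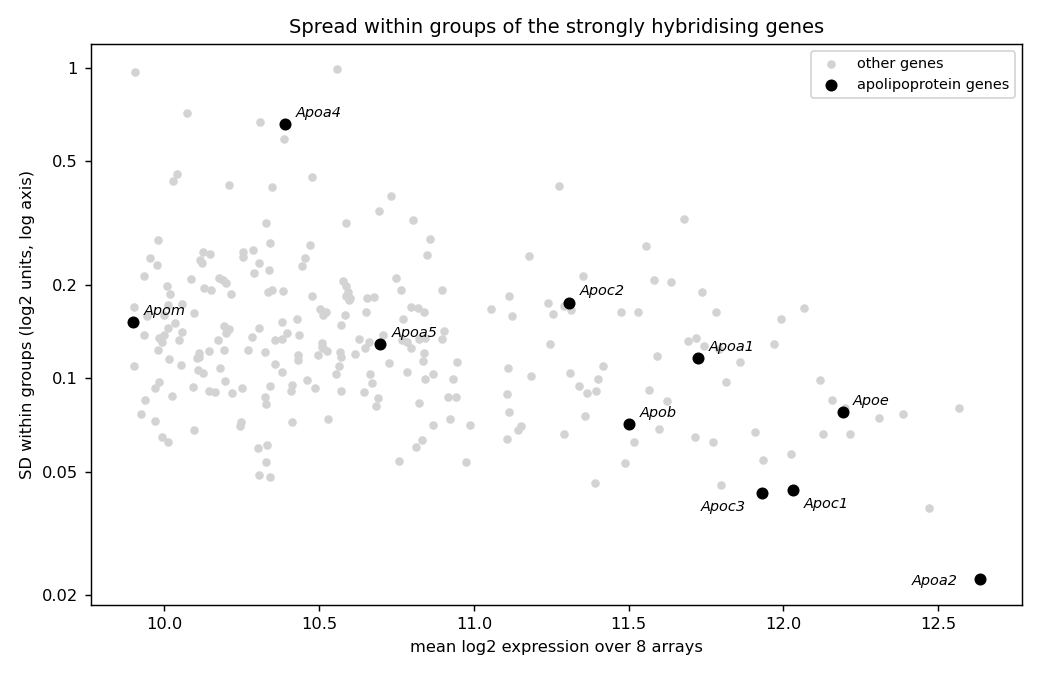
SD within groups (vertical axis, log scale) against mean log2 expression over 8 arrays for the 264 genes with a mean at or above that of Apom; black dots are the 10 apolipoprotein genes and grey dots the other genes. Apoa4 lies near the top at 0.659, and Apoa2 is the lowest and rightmost point at 0.0225.

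Apoa5 (Entrez Gene 66113), next to Apoa4 on the chromosome, encodes a scarce plasma protein that aids triglyceride clearance. Its levels were 10.61, 10.69, 10.70 and 10.46 in LKB1 KO 1 to 4, against 10.79, 10.57, 10.86 and 10.89 in Ctrl 1 to 4. Ctrl 2 lay within the LKB1 KO range, and the difference was -0.16 (SE 0.13, adjusted p = 0.642). In this row of neighbours the differences were therefore -0.31 for Apoa1, 0.04 for Apoc3, 0.69 for Apoa4 and -0.16 for Apoa5. Whether these 4 differ from each other was not tested.

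The C apolipoproteins include an activator and inhibitors of triglyceride clearance. Apoc2 (Entrez Gene 11813) encodes the cofactor that lipoprotein lipase requires. Its levels were 11.47, 11.25, 11.48 and 11.55 in LKB1 KO 1 to 4, against 10.95, 11.04, 11.35 and 11.37 in Ctrl 1 to 4. LKB1 KO 2 was the sole LKB1 KO array inside the Ctrl range. The difference of 0.26 (SE 0.14, 95% confidence interval -0.05 to 0.57) equals a 1.20-fold higher level and did not pass the test (adjusted p = 0.471). Without both LKB1 KO 2 and Ctrl 4 it was 0.39 (adjusted p = 0.254).

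Apoc3 (Entrez Gene 11814), which encodes an inhibitor of lipoprotein lipase and of remnant uptake, hardly varied. Its levels lay between 11.94 and 11.97 in LKB1 KO arrays, against 11.83 to 11.96 in Ctrl arrays, with a difference of 0.04 (SE 0.11, 95% confidence interval -0.20 to 0.28, adjusted p = 0.913). Apoc1 (Entrez Gene 11812) encodes a small protein that hinders remnant uptake. Its levels lay between 11.97 and 12.07 in LKB1 KO arrays, against 11.99 to 12.08 in Ctrl arrays, with a difference of -0.02 (SE 0.11, 95% confidence interval -0.26 to 0.22, adjusted p = 0.958). Its sign turned to 0.09 under quantile normalization. In the row of neighbours around Apoe, the differences were -0.02 for Apoe, -0.02 for Apoc1, 0.19 for Apoc4 and 0.26 for Apoc2. The Apoc4 arrays did not overlap, but its adjusted p was 0.551.

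No single array carried the family up or down. Around each gene's mean over 8 arrays, the median deviation of the 10 genes lay between -0.03 and 0.01 in LKB1 KO arrays, against -0.03 to 0.07 in Ctrl arrays. LKB1 KO 2, the array with the lowest mean correlation with its own group, stood at 0.01. Summed on the linear scale, the 10 genes gave log2 totals of 14.95 to 15.03 in LKB1 KO arrays, against 14.91 to 14.99 in Ctrl arrays, and the groups overlapped.

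The genes whose values followed those of Apoa1 most closely were Kctd6, Nbeal2 and Masp2. Likeness was the root mean square difference over the 8 arrays between values centred on each gene's mean, among 11591 genes brighter than the median gene. It was 0.045 for Kctd6, 0.058 for Nbeal2 and 0.066 for Masp2, a protease gene of the lectin pathway of complement. Their own differences of -0.34, -0.27 and -0.35 did not pass the test, with adjusted p of 0.256, 0.443 and 0.262. The search took in the arrays of both groups, so differences near that of Apoa1 follow from the choice of these genes. The same search for Apoa4, added after its values had been seen, gave Dusp8 as the nearest gene, 0.334 away. Likeness of this kind depends on a gene's own spread, so that distance cannot be compared with those for Apoa1.

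Fewer hepatocytes and less transcript per hepatocyte cannot be told apart in whole-liver RNA. Hepatocyte markers identified the tissue, with Alb between 12.16 and 12.31 in LKB1 KO arrays, against 12.29 to 12.47 in Ctrl arrays. Of 10 hepatocyte markers measured, 0 passed the test and 8 had lower means, with a median of -0.12. Their summed log2 level was 15.01 to 15.09 in LKB1 KO arrays, against 15.18 to 15.27 in Ctrl arrays, without overlap. Of 8 macrophage markers 1 fell and 0 rose (median -0.46), and their summed level was 9.20 to 9.65 in LKB1 KO arrays, against 9.53 to 10.43 in Ctrl arrays. Of 8 endothelial markers 2 fell and 0 rose (median -0.65), with sums of 9.51 to 9.76 in LKB1 KO arrays, against 9.97 to 10.32 in Ctrl arrays. Stellate and fibroblast markers (0 of 8 passed, median -0.36) had sums of 8.84 to 9.25 in LKB1 KO arrays, against 9.37 to 9.67 in Ctrl arrays. Leukocyte and erythroid markers (1 of 7 fell, median -0.45) had sums of 8.76 to 9.82 in LKB1 KO arrays, against 9.66 to 10.62 in Ctrl arrays. Cholangiocyte markers (0 of 5 passed, median -0.04) had sums of 6.11 to 6.64 in LKB1 KO arrays, against 6.13 to 6.84 in Ctrl arrays. Array values have no true zero; Epcam, Cftr and the B cell marker Cd79a stayed on all 8 arrays below 3.73, the 95th percentile of mean levels over 1350 olfactory and vomeronasal receptor genes. The part of cell composition in the apolipoprotein values was not tested.

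Genes of lipoprotein handling and of apolipoprotein gene regulation were set beside the family in 6 lists with 102 measured genes. Of these, 2 rose and 12 fell, and the 29 transcription regulators among them hold 1 of the rises and 6 of the falls. Over all genes 0.487% passed as higher and 1.49% as lower. The lists were chosen with earlier results of these data known, so these counts cannot show an excess. A list of 15 further apolipoprotein genes was taken without Saa4, an HDL apolipoprotein gene that fell (difference -3.03). Saa4 is counted below with the plasma lipases and lipoprotein remodelling. Among the 15, 0 passed the test (median -0.03), with 3 at an unadjusted p under 0.05. The closest was Apol7a, of the APOL family, at 6.07, 5.56, 5.72 and 6.33 in LKB1 KO 1 to 4, against 6.59, 6.96, 6.67 and 6.65 in Ctrl 1 to 4. Its difference of -0.80 (SE 0.18, adjusted p = 0.0508) became a call without LKB1 KO 4 (adjusted p = 0.0361) and under quantile normalization, with dim genes left out, with a trended and robust prior and with array weights (0.0378 to 0.0421). Apon stood at -0.45 (SE 0.12, adjusted p = 0.0943) and passed with a trended and robust prior (adjusted p = 0.0208), where 3 genes of this list were lower. Probes of APOL genes may share sequence within that family, so the Apol7a value may be uncertain. Such sharing was not checked.

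In the list of APOB mRNA editing and VLDL assembly, 2 of 20 genes fell, 0 rose and 18 did not pass (median -0.07). Without LKB1 KO 2, under quantile normalization and with array weights, 1 gene of the list was called higher. Dgat2, which makes triglyceride for VLDL, fell by 1.19 on the log2 scale (SE 0.15, adjusted p = 0.00382), to a mean of 7.66 ± 0.23 in LKB1 KO, against 8.85 ± 0.18 in Ctrl (SD, n = 4 each). Mia3, which helps load bulky cargo at endoplasmic reticulum exit sites, had a difference of -0.59 (SE 0.12, adjusted p = 0.0367), a call lost without any single array (adjusted p from 0.0572 to 0.102). Other genes of the list, named after their values were seen, did not pass. Dgat1, the other gene of the last step of triglyceride synthesis, lay between 5.94 and 6.78 in LKB1 KO arrays, against 5.48 to 6.06 in Ctrl arrays. LKB1 KO 2 lay within the Ctrl range, and the difference was 0.71 (SE 0.21, adjusted p = 0.139), opposite in sign to that of Dgat2. Sort1, the gene of a sorting receptor, stood at -0.64 (adjusted p = 0.253), Mttp, which loads lipid onto APOB, at 0.18 (adjusted p = 0.703), and the editing enzyme gene Apobec1 at -0.07 (adjusted p = 0.914).

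Of 15 genes of plasma lipases and lipoprotein remodelling, 2 fell, 0 rose and 13 did not pass, with a median of -0.38. Saa4, whose product is an HDL apolipoprotein of the serum amyloid family, had levels of 7.80, 7.51, 7.67 and 7.49 in LKB1 KO 1 to 4, against 10.79, 10.69, 10.52 and 10.59 in Ctrl 1 to 4. This was an 8.19-fold lower level (difference -3.03, SE 0.13, adjusted p = 3.08e-06), beside 1.24-fold for Apoa1. Lmf1, which encodes a folding factor for lipases, had a difference of -1.04 (SE 0.20, adjusted p = 0.0250). Its call was lost without LKB1 KO 1, LKB1 KO 2, LKB1 KO 3, Ctrl 1, Ctrl 2 or Ctrl 4 (adjusted p up to 0.0804).

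Among 13 genes of lipoprotein receptors and uptake, 1 rose, 2 fell and 10 did not pass (median 0.03). Lrp1, a receptor for APOE-bearing remnants, stood at 8.52, 7.83, 8.19 and 8.09 in LKB1 KO 1 to 4, against 9.16, 9.13, 9.09 and 9.14 in Ctrl 1 to 4. The difference was -0.97 (SE 0.15, adjusted p = 0.00908), a 1.96-fold lower level. Vldlr, which encodes the VLDL receptor, was 2.46-fold higher (1.30, SE 0.24, adjusted p = 0.0201). Mylip, the gene of a ubiquitin ligase that marks lipoprotein receptors for breakdown, was 2.28-fold lower (-1.19, SE 0.25, adjusted p = 0.0396). The Vldlr call was lost without LKB1 KO 1, LKB1 KO 3, LKB1 KO 4, Ctrl 1 or Ctrl 2 (adjusted p up to 0.0705). That of Mylip was lost without any LKB1 KO array, Ctrl 1 or Ctrl 4 (up to 0.122).

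Of 10 genes of cholesterol and phospholipid efflux, 0 passed the test (median -0.12) and 3 had an unadjusted p under 0.05. Abca1, the transporter gene that lipidates APOA1, stood at -0.63 (SE 0.15, adjusted p = 0.0655), and its arrays did not overlap. It passed with a trended and robust prior (adjusted p = 0.0378). Abcg8, a subunit gene of the sterol exporter into bile, stood at 0.89 (SE 0.30, adjusted p = 0.203).

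**Figure D4:**
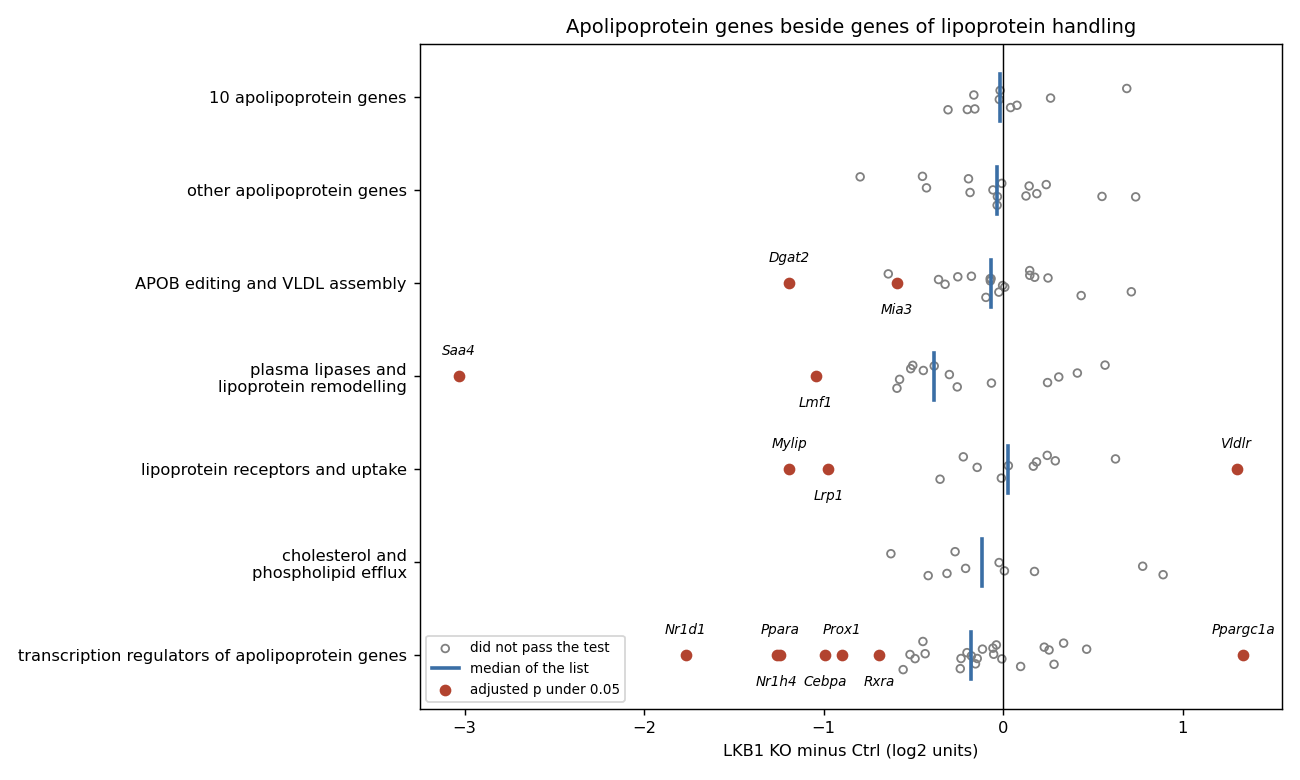
Difference of each gene (LKB1 KO minus Ctrl, log2 units) for the 10 apolipoprotein genes and 6 lists of lipoprotein handling and regulation; filled, labelled dots passed the test (adjusted p under 0.05), open dots did not, and blue bars are list medians. The apolipoprotein row holds no filled dot, and the row of transcription regulators holds 7.

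Of 29 transcription regulators of apolipoprotein genes that were measured, 1 rose, 6 fell and 22 did not pass. This was 24.1% past the threshold, beside 1.98% of all genes, and the median was -0.18. The list was chosen with earlier results of these data known, and the 1.98% includes dim genes, so these shares cannot show an excess. The difference from the apolipoprotein genes was not itself tested. Nr1d1, the clock repressor that is known to act on Apoc3, had levels of 6.89, 6.32, 6.40 and 7.18 in LKB1 KO 1 to 4, against 8.35, 8.31, 9.04 and 8.17 in Ctrl 1 to 4. It was 3.41-fold lower (-1.77, SE 0.24, adjusted p = 0.00472). Ppara, the fatty acid receptor that controls several apolipoprotein genes, was 2.37-fold lower (-1.24, SE 0.19, adjusted p = 0.00895). Nr1h4, the bile acid receptor, was 2.40-fold lower (-1.26, SE 0.17, adjusted p = 0.00473). Ppargc1a, a coactivator of the fasting response, was 2.53-fold higher (1.34, SE 0.17, adjusted p = 0.00401). These 4 calls, and those of Dgat2, Saa4, Lrp1 and Cebpa, held with each single array left out. Without moderation of variances those of Nr1d1, Ppara, Nr1h4, Ppargc1a and Lrp1 were lost, as was that of Cebpa (adjusted p = 0.0754).

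The other 3 falls, named after their values were seen, were Cebpa (-0.99, adjusted p = 0.0108), Rxra, the partner of many nuclear receptors (-0.69, adjusted p = 0.0161), and Prox1 (-0.90, adjusted p = 0.0310). The call of Prox1 was lost without any array but Ctrl 1 (adjusted p up to 0.0830), and that of Rxra without LKB1 KO 1 or LKB1 KO 4 (up to 0.0563). Hnf4a, the nuclear receptor that drives most of the family in hepatocytes, was at 9.74, 9.28, 9.67 and 9.56 in LKB1 KO 1 to 4, against 9.52, 9.69, 9.71 and 9.48 in Ctrl 1 to 4. Its difference was -0.04 (SE 0.14, 95% confidence interval -0.34 to 0.26, adjusted p = 0.939). Creb3l3, a known activator of Apoa4, differed by -0.05 (SE 0.12, adjusted p = 0.902). Hnf4a and Creb3l3 were likewise picked after the values were seen.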

How the data were processed

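Per the labels' protocols, total RNA was extracted from liver with TRIzol, copied and amplified with the Ovation PicoSLV2 kit and labelled with biotin. The authors deposited 1 log2 value per row and array. The submitters' processing notes name RMA, which normalizes arrays jointly and summarises probes, and Partek; which array design, probe positions and genome build were used is not given in the sources used here. Differences can be narrowed at both ends of the scale, and related genes may share probes.

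The table has 25206 rows; the platform annotation pairs 23185 of them with 1 symbol, 0 with several and 2021 with none. All 8 columns were matched to samples by name. Groups came from the titles. A linear model with group as its single term was fitted to all named genes with limma 3.58.1 in R 4.3.3 (lmFit, eBayes), without a filter on level, and p-values were adjusted by Benjamini-Hochberg with a threshold of 0.05. The fit was tested on simulated data. The labels do not say that samples are separate animals, so the spread behind each p-value is that of these samples and may be technical.

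The members and lists were chosen with earlier results of these data known. By rule the text names Stk11, all 10 members, up to 4 genes past the threshold per list, those of largest difference and including the rarer direction (or the 2 with the smallest p where fewer than 2 passed), and the 3 genes most like the member with the smallest p. Some list genes are not analysed here. The alternatives were the replicate number as a block, single arrays left out, LKB1 KO 2 and Ctrl 4 left out together, quantile normalization, median centring, a filter on dim genes, other variance priors, array weights, all rows, and stricter thresholds.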

Additional observations from a re-analysis of the deposited data

Results flagged for a closer look

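Among 70 groups of 4 arrays, 2 had an array set apart, where chance flags about 1 in 20. Vldlr in LKB1 KO 2 stood at 5.43, below the other LKB1 KO arrays at 5.84 to 5.91, with a gap of 0.846 of the group's range. Rxra in LKB1 KO 3 stood at 8.81, above the other LKB1 KO arrays at 8.62 to 8.65, with a gap of 0.881 of the range. No array of an apolipoprotein gene was set apart in this way.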

How the results depend on the processing

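The count of apolipoprotein genes past the threshold, 0 higher and 0 lower, was the same under all alternatives that were run, and the lowest adjusted p of any member was 0.0893 (Apoa1, trended and robust prior). Of the members' signs, Apoc1 turned to 0.09 and Apoe to 0.10 under quantile normalization, and with single arrays left out Apoe ran from -0.0564 to 0.0111; the cause was not tested. The members with an interval within 1.5-fold numbered 7 to 9. The genes of the 6 lists past the threshold, transcription regulators included, were 14 in all. They numbered 9 with the replicate block, 3 without moderation of variances (Saa4, Dgat2 and Rxra) and 7 at an adjusted p under 0.01. With single arrays left out they numbered 8 to 12 (8 without LKB1 KO 1, 9 without LKB1 KO 3). Their count reached 18 with a trended and robust prior. The replicate block ended the calls of Mia3, Lmf1, Mylip, Rxra and Prox1. Equal numbers correlated in their deviations at -0.04, -0.11, 0.18 and -0.02, and 1 of 4 LKB1 KO arrays matched its own number best, which cannot decide pairing. The arrays were not treated as paired, since the titles do not say that the numbers pair animals. Whether a number marks a shared litter, batch or day is not known. Over all genes, 458 passed as deposited, 268 with the replicate block, 97 without moderation, 721 with array weights, 139 at an adjusted p under 0.01 and 213 to 491 with single arrays left out. The share of these that were higher was 24.7% as deposited and 36.8% under quantile normalization, 18.9% under median centring, 17.3% at an adjusted p under 0.01 and 13.4% without moderation. Stk11 kept its call under every alternative that was run. Averaging of repeated rows was not run, since each gene had 1 row.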
